A study of Mus musculus with 2 samples.

Results

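The genes described here are the G1 and S phase cyclins and the kinases they activate, in megakaryocyte-erythroid progenitors (MEP), the bone marrow cells that give rise to red cells and to the megakaryocytes that shed platelets. The set was given as 9 gene symbols, Ccnd1, Ccnd2, Ccnd3, Ccne1, Ccne2, Ccna2, Cdk2, Cdk4 and Cdk6, matched by gene identifier without version, and all 9 were found among the 43346 annotated genes of the tables. The rule uses no measured value, but the set was proposed with earlier results of these data known. Total RNA longer than 200 bases was sequenced, with spike-in RNAs, from 2 libraries of 100 primary MEP each. The cells came from male adult C57BL/6J mice aged 5 to 6 weeks, with no treatment or altered allele named in the labels. The libraries are labelled as biological replicates 1 and 2, with separate biosamples but 1 donor record, and they form the only group, so no test between conditions was possible. The spread between them may be technical.

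Progress through G1 is driven by D-type cyclins, which bind CDK4 and CDK6 and start the phosphorylation of the retinoblastoma protein. Cyclin E then activates CDK2 at the entry into S phase, and cyclin A takes over CDK2 while DNA is copied. D-type cyclins are induced by growth factor signals, whereas cyclins E and A rise and fall with the cycle itself under E2F control. In mice, loss of CDK4 and CDK6, or of all D-type cyclins, is known to impair red cell formation in the fetal liver, and cyclin D3 is known to set the number of divisions of terminal erythroid cells.

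The replicate 1 table summed to 30016974 expected counts and the replicate 2 table to 51510347, and protein-coding nuclear genes took 45.0% and 50.1% of these. The 9 genes together held 24073 counts in replicate 1 and 50831 in replicate 2. All 8 erythroid or shared megakaryocyte-erythroid marker genes checked reached 10 TPM in both libraries, which fits the label. The share over protein-coding nuclear genes was 24.7%. These markers summed to 2645 TPM in replicate 1 and 3088 in replicate 2, of which Car1 alone held 1941 and 2286 TPM. Of 5 megakaryocyte markers only Itga2b reached 10 TPM in both libraries, and Pf4 had 0 counts in replicate 1 and 8 in replicate 2. The libraries differed in markers of other lineages. The 11 neutrophil and monocyte markers summed to 1887 TPM in replicate 1 and 7.57 in replicate 2, where Ngp, Ltf, Lcn2, Elane, Mpo, Ctsg and Csf1r were at 0. In replicate 1, S100a8 and S100a9 held 782 and 677 TPM of that sum, while Csf1r had 1 count. The 8 B cell markers summed to 9.65 TPM in replicate 1, where Vpreb1 was at 0, and 142.6 TPM in replicate 2. The 6 T cell markers summed to 26.4 and 18.7 TPM in replicates 1 and 2, with Cd8a at 0 in both, and the 6 stem and multipotent cell markers to 3.31 and 1.82 TPM, with Procr at 0 in both. The part of these other cells in the values below was not tested. In RNA from pooled cells, fewer cells expressing a gene and less RNA per cell cannot be told apart.

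Sequences are given for the results on the start sites of Ccnd3, on the promoter of Cdk4 and on transcripts of Cdk4, Cdk2 and Ccne2. The 300-base promoter windows run from 250 bases before to 50 bases after the annotated start and come from RefSeq on GRCm38.p6. Windows were matched for Ccnd3, Ccne1, Cdk2, Cdk4 and Cdk6. Ccnd3 has a distal and a proximal start, and its windows are shown because reads were assigned to transcripts from both in these libraries. The distal window is chr17:47504801-47505100 on the plus strand and the proximal one chr17:47593217-47593516 on the plus strand, with a CCAAT box in capitals.
Ccnd3 distal: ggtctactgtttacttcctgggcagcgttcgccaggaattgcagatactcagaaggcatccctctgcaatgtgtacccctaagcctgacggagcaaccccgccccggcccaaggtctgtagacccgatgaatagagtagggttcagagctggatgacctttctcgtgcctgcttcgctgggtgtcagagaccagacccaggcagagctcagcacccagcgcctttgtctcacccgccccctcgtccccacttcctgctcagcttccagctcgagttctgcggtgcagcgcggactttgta
Ccnd3 proximal: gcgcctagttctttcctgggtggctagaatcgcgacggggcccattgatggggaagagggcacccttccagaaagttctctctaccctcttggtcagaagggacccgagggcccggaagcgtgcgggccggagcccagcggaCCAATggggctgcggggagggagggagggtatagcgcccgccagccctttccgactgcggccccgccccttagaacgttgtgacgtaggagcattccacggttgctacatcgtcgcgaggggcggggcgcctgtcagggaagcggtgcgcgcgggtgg

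The window of Cdk4, chr10:127063285-127063584 on the plus strand, is shown because the letters CACGTG, the E-box core that MYC with MAX can bind, occur in it 4 times. The matches, in capitals, begin 172, 118, 98 and 11 bases before the start.
Cdk4: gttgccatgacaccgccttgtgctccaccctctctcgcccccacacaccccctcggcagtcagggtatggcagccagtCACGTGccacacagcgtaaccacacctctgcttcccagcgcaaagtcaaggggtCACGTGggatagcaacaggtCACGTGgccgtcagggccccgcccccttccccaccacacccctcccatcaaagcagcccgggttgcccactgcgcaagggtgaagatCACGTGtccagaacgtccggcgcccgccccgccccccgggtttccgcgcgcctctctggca
Over 32851 RefSeq promoter windows of the same length, 7.15% held CACGTG at least once and 8 windows, or 0.0244%, held it 4 or more times. The motif reads the same on both strands. Of the other windows, that of Cdk6 held 1 match and those of Ccnd3, Ccne1 and Cdk2 none. The E2F-type letters TTTCCCGC, searched on both strands, occurred once in the Cdk2 window and in none of the other windows searched, against 1.07% of all windows. The letters TTTGGCGC, another E2F-type form, and AGATAA, which GATA factors recognise, occurred in none of the 6 windows, against 0.514% and 11.2% of all windows. CCAAT occurred in the Ccnd3 proximal and Cdk2 windows, and in 37.4% of all windows. A match describes these letters only and is not evidence of binding.

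Levels were read as TPM, the authors' length-corrected share of all transcripts. Of the 9 genes, 8 stood at 10 TPM or more in both libraries, against 24.7% of 21461 protein-coding nuclear genes. The exception was Ccnd1. The median over the 9 genes was 46.04 TPM in replicate 1 and 60.5 in replicate 2, against 0.38 and 0.36 TPM over all protein-coding nuclear genes, many of which are not expressed. By mean level, Cdk4 came first, followed by Ccna2 and Cdk6, whose ranges overlapped. Ccnd3 and Ccne1 came next, with ranges apart from those of the genes next to them in this order. Ccnd3, at 65.19 and 79.77 TPM, lay close below Cdk6, at 80.88 and 81.7 TPM, and overlapped the range of Ccna2, 68.69 to 94.58 TPM. With all counts divided by the effective length of the main coding transcript, Ccnd3 was above Cdk6 in replicate 2, at 78.7 against 71.5 TPM. In replicate 1 it was below, at 64.0 against 72.5 TPM. Cdk2, Ccnd2 and Ccne2 followed, and neighbours among these overlapped. Ccnd1 came last, below all others in both libraries.

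**Figure D1:**
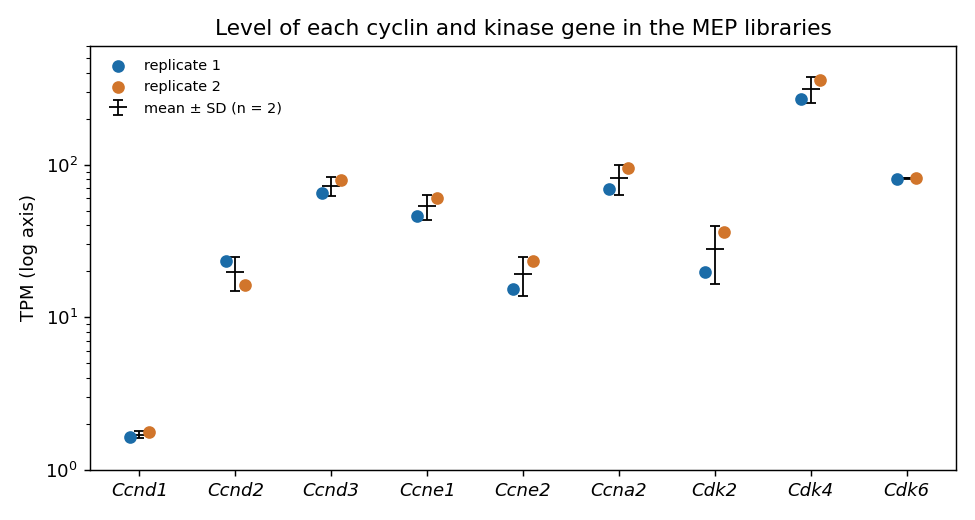
TPM of the 9 genes on a log axis, with replicate 1 left of replicate 2 for each gene and the mean ± SD (n = 2) as a black mark. Ccnd1 sits near 1.7 TPM and Cdk4 above 250 TPM, and only Ccnd2 is higher in replicate 1.

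Among D-type cyclins, the regulatory partners of CDK4 and CDK6, Ccnd3 carried most of the RNA. Ccnd3 (ENSMUSG00000034165.12, chr17:47505051-47599691, plus strand, mm10) was at 65.19 TPM in replicate 1 and 79.77 in replicate 2, from 2590 and 5506 counts, a mean of 72.5 ± 10.3 TPM (SD, n = 2). Ccnd2 (ENSMUSG00000000184.9, chr6:127125162-127152193, minus strand) was at 23.4 TPM in replicate 1 and 16.3 in replicate 2, from 2861 and 3485 counts, a mean of 19.85 ± 5.02 TPM (SD, n = 2). Ccnd1 (ENSMUSG00000070348.4, chr7:144929931-144939925, minus strand) was at 1.63 TPM in replicate 1 and 1.77 in replicate 2. Its 129 and 244 counts place it at the 56.3 and 56.5 percentiles of protein-coding nuclear genes in replicates 1 and 2, while Ccnd3 was at the 95.9 and 96.0 percentiles.

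The D-type cyclins summed to 90.2 TPM in replicate 1 and 97.8 in replicate 2. Ccnd3 made up 72.3% of that sum in replicate 1 and 81.5% in replicate 2, Ccnd2 25.9% and 16.7%, and Ccnd1 1.81% in each. The ratio of Ccnd3 to Ccnd2 was 2.79 in replicate 1 and 4.89 in replicate 2. The order of the D-type cyclins was thus the same in both libraries, while the distance of Ccnd2 from Ccnd3 was not. Counts are not length-corrected, and the 3740-base Ccnd1 and 5701-base Ccnd2 transcripts of the tables are longer than the main Ccnd3 transcript of 1977 bases.

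Ccnd3 TPM was assigned to transcripts from both of its start sites, with the proximal one ahead in each library. The ends of the RNA were not measured, so the use of each start rests on how reads were divided among annotated transcripts. Transcripts that begin within 200 bases of the proximal start held 62.9% of Ccnd3 TPM in replicate 1 and 76.4% in replicate 2, a mean of 69.7% ± 9.52 (SD, n = 2). Those at the distal start held 36.0% and 23.6%, a mean of 29.8% ± 8.78 (SD, n = 2). Of Ccnd3 counts, the distal start held 33.7% in replicate 1 and 17.8% in replicate 2, and the proximal start 66.2% and 82.2%. Both starts include transcripts annotated as retaining an intron, such as the distal Ccnd3-216 at 3.34 and 1.69 TPM and the proximal Ccnd3-206 at 1.31 and 3.57 TPM. The main proximal transcript, Ccnd3-205, was at 39.72 TPM in replicate 1 and 57.39 in replicate 2. The main distal transcript, Ccnd3-201, was at 13.55 TPM in replicate 1 and 10.56 in replicate 2. Both have the same coding sequence of 876 bases, so the main transcripts of the 2 starts differ outside the coding sequence. The higher share of the proximal start in replicate 2 came with a higher TPM of its main transcript and a lower TPM of the distal main transcript. Of Ccnd3 TPM, 14.0% in replicate 1 and 12.0% in replicate 2 lay in transcripts annotated as retaining an intron.

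Of the cyclins of S phase entry, Ccne1 was above Ccne2 in both libraries. Ccne1 (ENSMUSG00000002068.12, chr7:38097984-38107534, minus strand) was at 46.04 TPM in replicate 1 and 60.5 in replicate 2, from 1721 and 4129 counts, a mean of 53.3 ± 10.2 TPM (SD, n = 2). Ccne2 (ENSMUSG00000028212.12, chr4:11191351-11204779, plus strand) was at 15.38 TPM in replicate 1 and 23.18 in replicate 2, from 757 and 2443 counts, a mean of 19.3 ± 5.52 TPM (SD, n = 2). The ratio of Ccne1 to Ccne2 was 2.99 in replicate 1 and 2.61 in replicate 2, a mean of 2.80 ± 0.271 (SD, n = 2). Ccne1-201, which carries the full coding sequence, held 88.24% of Ccne1 TPM in replicate 1 and 95.28% in replicate 2.

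Ccna2 (ENSMUSG00000027715.5, chr3:36564865-36572150, minus strand), the cyclin A gene of dividing somatic cells, was at 68.69 TPM in replicate 1 and 94.58 in replicate 2. These values rest on 4216 and 9819 counts and give a mean of 81.6 ± 18.3 TPM (SD, n = 2). The coding transcript Ccna2-201 held 97.22% of it in replicate 1 and 94.52% in replicate 2. Ccna2 was close to the sum of both cyclin E genes, at 1.12 times that sum in replicate 1 and 1.13 times in replicate 2. Although each of the 3 genes was higher in replicate 2, this ratio differed by little between the libraries. Over coding transcripts only, the ratio was 1.27 in replicate 1 and 1.11 in replicate 2.

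Ccne2 was the only one of the 9 genes whose leading transcript differed between the libraries. Ccne2-201 held 53.3% of Ccne2 TPM in replicate 1 and was at 0 in replicate 2. Ccne2-202 held 23.12% in replicate 1 and 88.0% in replicate 2. Both have 12 exons, and they differ by 4 bases at the start of exon 1, by 97 bases at the end of exon 12 and by 3 coding bases at the start of exon 3. The exon 3 start lies at position 11192818 of chromosome 4 in Ccne2-201 and at 11192815 in Ccne2-202, which gives coding sequences of 1209 and 1212 bases. The joints of exons 2 and 3 are shown because the bases in capitals are the only coding difference between the leading transcripts of the libraries.
Ccne2-201: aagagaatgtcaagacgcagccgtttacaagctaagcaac
Ccne2-202: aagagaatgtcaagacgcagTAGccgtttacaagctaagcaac
Few bases tell these transcripts apart, and the tables do not give the number of reads over them. Their summed share with Ccne2-207, which also encodes 1212 bases, was 76.4% in replicate 1 and 99.0% in replicate 2. In replicate 1 a further 23.6% of TPM was given to the short non-coding Ccne2-205 of 432 bases, from 3.12% of Ccne2 counts. Coding transcripts held 96.9% of Ccne2 counts in replicate 1 and 99.9% in replicate 2.

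CDK2, the kinase that cyclins E and A activate, had the lowest RNA level of the 3 kinases. Cdk2 (ENSMUSG00000025358.11, chr10:128697939-128705031, minus strand) was at 19.85 TPM in replicate 1 and 36.02 in replicate 2, from 954 and 2984 counts, a mean of 27.9 ± 11.4 TPM (SD, n = 2). Its percentile among protein-coding nuclear genes was 84.4 in replicate 1 and 90.2 in replicate 2. The shorter coding transcript, Cdk2-201, was at 14.93 TPM in replicate 1 and 30.24 in replicate 2. The longer one, Cdk2-202, was at 4.92 and 5.77 TPM in replicates 1 and 2, which is 24.77% and 16.03% of the gene. Most of the difference between the libraries in Cdk2 thus lay in the shorter transcript.

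In the tables the Cdk2 transcripts differ in length by 144 bases, the size of the coding exon that only Cdk2-202 has. Its 48 codons make the coding sequence 1038 bases long in Cdk2-202, against 894 in Cdk2-201. This exon, chr10:128699976-128700119 on the minus strand, is shown because reads over it are what tells the longer transcript from the shorter one. All its bases are those of the exon and are in capitals.
Cdk2-202 exon: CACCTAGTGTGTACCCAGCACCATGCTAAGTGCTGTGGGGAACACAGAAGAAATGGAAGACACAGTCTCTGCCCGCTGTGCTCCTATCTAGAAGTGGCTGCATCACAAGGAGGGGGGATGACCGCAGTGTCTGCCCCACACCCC
Both Cdk2 transcripts begin within 200 bases of the same RefSeq start, and transcripts from it held 100% of Cdk2 TPM in each library.

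CDK4 and CDK6 are the kinases of the D-type cyclins. Cdk6 (ENSMUSG00000040274.7, chr5:3341485-3531008, plus strand) was nearly equal in the libraries on deposited TPM, at 80.88 TPM in replicate 1 and 81.7 in replicate 2, from 5731 and 9856 counts, a mean of 81.3 ± 0.580 TPM (SD, n = 2). With TMM factors it was at 205 CPM in replicate 1 and 178 in replicate 2, so the near equality holds on the deposited scale. Cdk6 has 2 transcripts in the tables with the same coding sequence of 978 bases. Cdk6-202 held 70.43% of the TPM in replicate 1 and 64.77% in replicate 2, and Cdk6-201 held 29.57% and 35.23%. Cdk6-202 is 3735 bases long in the authors' annotation and 11525 bases long in GENCODE M21, so its counts cover only part of the longer form.

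Cdk4 (ENSMUSG00000006728.8, chr10:127063534-127067920, plus strand) had the highest TPM of the 9 genes. It was at 270.0 TPM in replicate 1 and 357.15 in replicate 2, from 5114 and 12365 counts, a mean of 313.6 ± 61.6 TPM (SD, n = 2), at the 99.2 and 99.3 percentiles of protein-coding nuclear genes. The ratio of Cdk4 to Cdk6 was 3.34 in replicate 1 and 4.37 in replicate 2, and that of Cdk4 to Cdk2 was 13.6 and 9.92. The raw counts of Cdk4 and Cdk6 were much closer to each other than the TPM values, and in replicate 1 Cdk6 had more counts. Length correction therefore sets the size of the ratio, and it rests on how reads were divided among transcripts.

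Much of the TPM of Cdk4 was assigned to transcripts without a complete coding sequence for the kinase. Its leading transcript was Cdk4-209, a 468-base transcript of 2 exons annotated as retaining an intron, at 107.9 TPM in replicate 1 and 152.04 in replicate 2. It held 39.96% of Cdk4 TPM in replicate 1 and 42.57% in replicate 2, but 15.4% and 14.4% of Cdk4 counts. Cdk4-201, the transcript of 2053 bases with the full coding sequence of 909 bases, was at 52.25 TPM in replicate 1 and 78.02 in replicate 2. It held 19.35% and 21.84% of TPM, but 43.0% and 46.0% of counts. A transcript this short gains more TPM for each read than a long one.

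Of the 468 bases of Cdk4-209, 443 also belong to Cdk4-201, and 25 are its own. Its first 60 bases, chr10:127066076-127066135 on the plus strand, are shown with those 25 intron bases in capitals, because they are the only ones that Cdk4-201 lacks.
Cdk4-209: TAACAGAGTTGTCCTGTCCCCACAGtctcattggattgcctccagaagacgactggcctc
Besides these bases, only the positions of its ends and the lengths of the fragments can tell its reads from those of Cdk4-201.

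**Figure D2:**
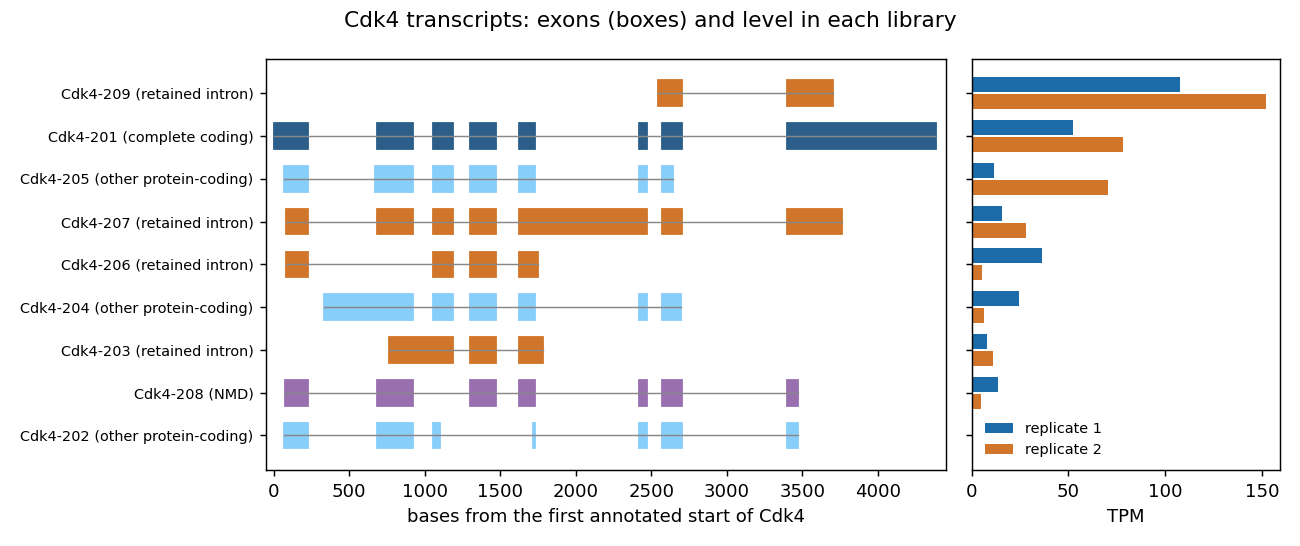
Left, exons of the 9 annotated Cdk4 transcripts in GENCODE M21 as boxes, by distance in bases from the first annotated start, and right, their TPM in replicates 1 and 2. The short Cdk4-209 lies within the last part of the gene and has the longest bar in both libraries, at 107.9 and 152.04 TPM in replicates 1 and 2.

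Several other Cdk4 transcripts varied more between the libraries. Cdk4-205, a coding transcript with an incomplete end, was at 11.75 TPM in replicate 1 and 70.45 in replicate 2. Cdk4-206, annotated as retaining an intron, was at 36.2 TPM in replicate 1 and 5.43 in replicate 2. Cdk4-204 was at 24.26 and 6.48 TPM in replicates 1 and 2. In all, transcripts annotated as protein-coding held 32.7% of Cdk4 TPM in replicate 1 and 43.6% in replicate 2, but 58.0% and 65.4% of Cdk4 counts. Complete coding transcripts held 19.4% and 21.8% of TPM. Complete means at least 80% of the longest coding sequence and no end marked as not found in the annotation. Cdk4-204 and Cdk4-205 have 814 and 760 coding bases, against 909 in Cdk4-201, and were left out only for an end not found. Transcripts annotated as retaining an intron held 62.3% in replicate 1 and 55.0% in replicate 2. In percentage points the share of complete coding transcripts varied least of these, at 20.6% ± 1.76 (SD, n = 2), but it was also the smallest share.

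**Figure D3:**
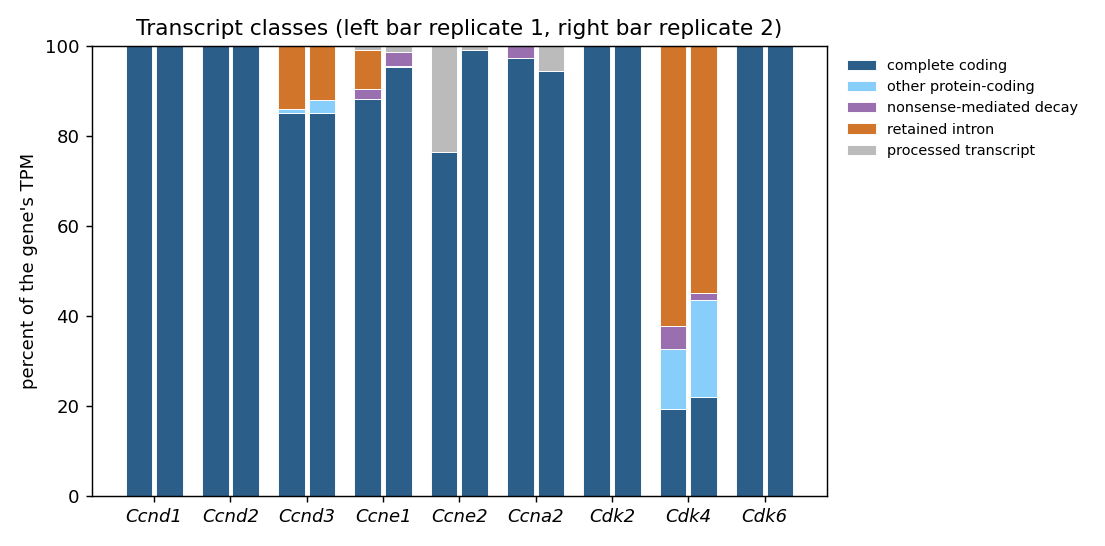
Percent of each gene's TPM in 5 classes of transcript, replicate 1 in the left bar and replicate 2 in the right bar of each pair. Cdk4 is the only one of the 9 genes below 50% of TPM in coding transcripts, at 32.7% and 43.6% in replicates 1 and 2, while Ccnd1, Ccnd2, Cdk2 and Cdk6 are at 100% in both. Of Cdk4 counts, coding transcripts held 58.0% in replicate 1 and 65.4% in replicate 2. Only coding transcripts were annotated for Ccnd2, Cdk2 and Cdk6.

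No other of the 9 genes was divided in this way. Coding transcripts held 100% of Ccnd1, Ccnd2, Cdk2 and Cdk6 in both libraries, 97.2% and 94.5% of Ccna2, 88.2% and 95.6% of Ccne1, 86.0% and 88.0% of Ccnd3 and 76.4% and 99.0% of Ccne2 in replicates 1 and 2. Only 1 transcript of Ccnd2 was quantified, and the 2 of Cdk2 and the 2 of Cdk6 are all coding. The annotation thus fixes the shares of Ccnd2, Cdk2 and Cdk6 at 100%. Of Ccne2 counts, coding transcripts held 96.9% in replicate 1 and 99.9% in replicate 2, and of Cdk4 counts 58.0% and 65.4%. The RefSeq start of Cdk4 accounted for 48.0% of its TPM in replicate 1 and 52.5% in replicate 2, but for 71.5% and 81.5% of its counts, and Cdk4-209 is among the transcripts that begin further inside the gene. The starts of Ccne1 and Cdk6 accounted for 90.3% and 98.3%, and for 70.4% and 64.8%, of TPM in replicates 1 and 2.

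The standing of Cdk4 against Cdk6 depended on which transcripts were summed, in comparisons chosen after the data were seen. Over coding transcripts Cdk4 was at 88.26 TPM in replicate 1 and 155.75 in replicate 2, and its ratio to Cdk6 was 1.09 and 1.91. With all counts of each gene divided by the effective length of its main coding transcript, Cdk4 was at 121 TPM in replicate 1 and 170 in replicate 2, and the ratio was 1.68 and 2.37. Over complete coding transcripts alone the order turned: Cdk4 was 0.646 times Cdk6 in replicate 1 and 0.955 times in replicate 2. The turn rests on leaving out Cdk4-204 and Cdk4-205, which hold 814 and 760 coding bases but have an end marked as not found. Apart from them, the coding sum adds only Cdk4-202, at 0.0 and 0.8 TPM in replicates 1 and 2. Cdk6 has only complete coding transcripts, so only the level of Cdk4 could fall in the complete coding sum and in the coding one. The ratio of Cdk4 to Cdk2 stayed above 1 in each library under all of these, with means of 4.39 over coding transcripts, 5.34 at the main coding length and 2.40 over complete coding transcripts. Cdk2 was thus the lowest of the 3 kinases under each way of summing, and the place of Cdk4 above Cdk6 held under 3 of the 4.

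**Figure D4:**
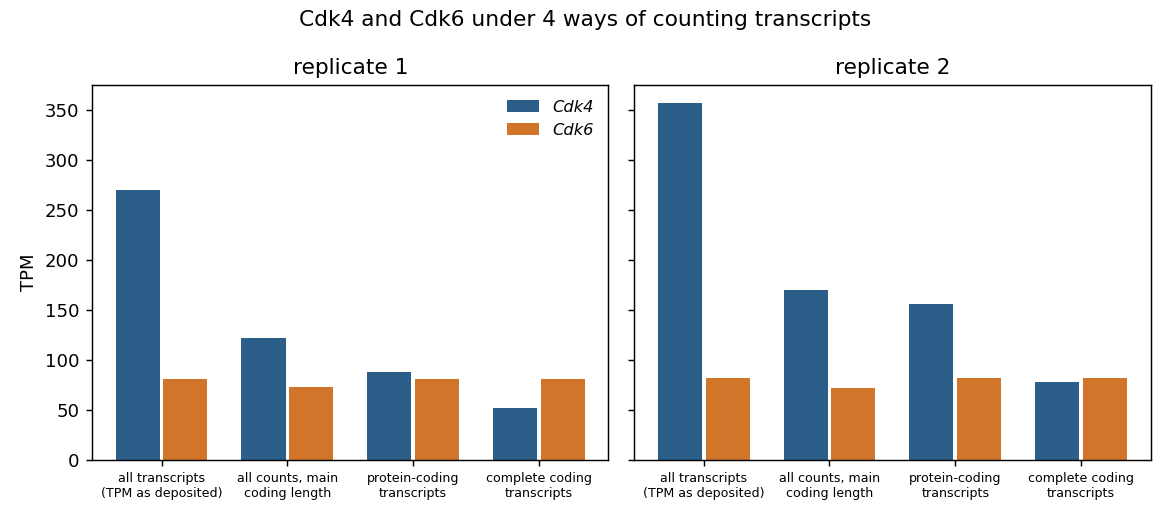
TPM of Cdk4 and Cdk6 in replicate 1 (left panel) and replicate 2 (right panel) under 4 ways of counting transcripts. Cdk4 stands at 270.0 and 357.15 TPM in replicates 1 and 2 over all transcripts, and at 52.25 and 78.02 TPM over complete coding transcripts, where it lies below Cdk6 in both.

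Between the libraries, the 9 genes differed by less than 2-fold. On log2(TPM + 1), replicate 1 minus replicate 2, 0 of 9 reached a 2-fold difference, against 11.3% of the 11438 genes with a mean of at least 1 TPM. The median over the 9 genes was -0.39, against -0.18 over all those genes, whose central 95% ran from -1.60 to 1.47. Lower values in replicate 1 were seen for 8 of 9 genes, against 66.1% of all genes. With library size factors, with TPM rescaled over protein-coding nuclear genes or with the median difference taken off, 6 of 9 were lower in replicate 1, since Ccnd1 and Cdk6 turned to slightly higher. The share of all genes lower in replicate 1 was then 51.0%, 50.5% and 50.0%. With posterior mean TPM, 7 of 9 and 48.6% of all genes were lower, and Ccnd1 was the gene that turned.

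Ccnd2 was the exception to this direction and stayed higher in replicate 1 under each scaling tried. Its difference was 0.50, a TPM ratio of 1.44 (95% exact interval 1.37 to 1.51), and 0.69 with TMM factors. In the other direction Cdk2 was at -0.83, a ratio of 0.551 (95% exact interval 0.512 to 0.593), and Ccne2 at -0.56, a ratio of 0.664 (95% exact interval 0.611 to 0.720). Which of them differed more depended on the setting: with TMM factors Cdk2 was at -0.65 and Ccne2 at -0.69, and over complete coding transcripts Cdk2 was at -0.83 and Ccne2 at -0.91. The differences of Ccna2, Cdk4, Ccne1 and Ccnd3 lay between -0.46 and -0.29. For Cdk6 the ratio was 0.990 (95% exact interval 0.958 to 1.02) and for Ccnd1 0.921 (95% exact interval 0.738 to 1.14), so on deposited TPM these did not differ beyond counting error. For Cdk6 this depends on the scale, since its difference was 0.20 with TMM factors and 0.17 on rescaled TPM. The intervals cover counting error only. All 9 differences lay within the central 95% of all genes, and the markers of other lineages that moved with the libraries, given above, were not tested for their part in them.

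**Figure D5:**
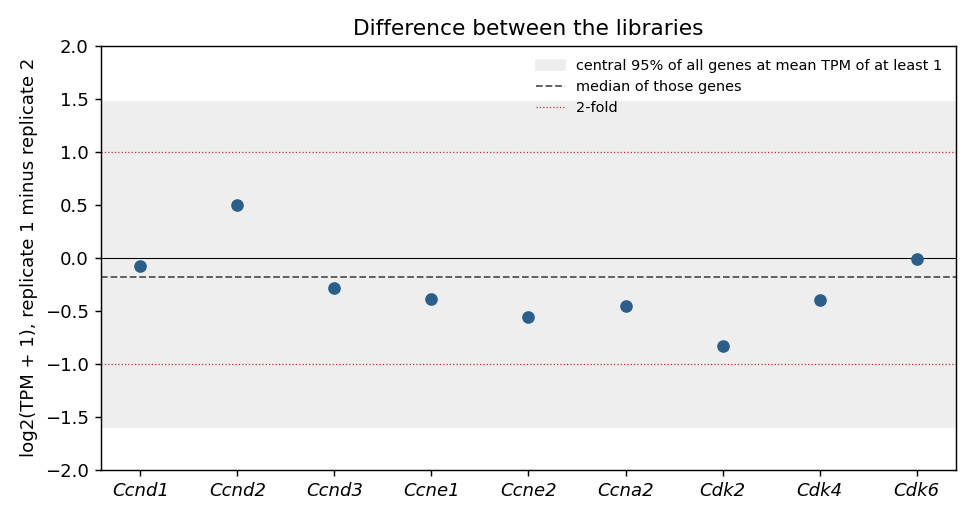
Difference between the libraries in log2(TPM + 1), replicate 1 minus replicate 2, for the 9 genes, with the central 95% (grey) and the median (dashed, -0.18) of the 11438 genes with a mean of at least 1 TPM. Ccnd2 is the only gene above 0, at 0.50, and Cdk2 is the lowest at -0.83.

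Of the 9 genes, 8 have an annotated neighbour on the opposite strand that overlaps them, the exception being Ccne1. The overlaps are of gene spans and can include introns. These include Tspan31 over 641 bases of Cdk4, at 18.6 TPM in replicate 1 and 31.2 in replicate 2, and Ints8 over 5622 bases of Ccne2, at 39.45 and 27.02 TPM. LTO1 overlaps 1771 bases of Ccnd1 and was at 6.81 and 16.93 TPM in replicates 1 and 2, above Ccnd1 itself. Exosc9 overlaps Ccna2 and Bysl overlaps Ccnd3. Between annotated transcripts, the identical stretch was 641 bases for Tspan31 and Cdk4, 474 bases for Ints8 and Ccne2, and 818 bases for LTO1 and Ccnd1. Whether reads were counted by strand is not given in the sources used here, so how reads in such stretches were divided is not known. Outside such overlaps, the closest copies among annotated transcripts were the pseudogene Ccnd3-ps, 96.3% identical to Ccnd3 over 881 bases, and Gm16505, 92.3% identical to Cdk6 over 388 bases, and both had 0 counts in both libraries.

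As a list, the genes of proteins that switch these kinases on or off, or remove the cyclins, had a lower median TPM than the G1 and S genes. Of 17 such genes, 10 reached 10 TPM in both libraries, against 24.7% of protein-coding nuclear genes. The median over the 17 was 12.78 TPM in replicate 1 and 14.4 in replicate 2. The highest of them was Cks2, at 142 and 203 TPM, while Cks1b was at 76.7 and 111 TPM in replicates 1 and 2. Both encode small CDK-binding proteins, and that of Cks1b helps SCF-SKP2 recognise its targets. The CDK-activating kinase, which phosphorylates CDK2, CDK4 and CDK6, had Ccnh at 22.5 and 38.5 TPM, Mnat1 at 8.66 and 8.55 TPM and its catalytic subunit Cdk7 at 5.47 and 9.51 TPM in replicates 1 and 2. Cdc25a, the phosphatase that frees CDK2 from inhibition in late G1, was at 19.36 TPM in replicate 1 and 22.19 in replicate 2. Cdc25b was at 3.61 and 10.16 TPM and Cdc25c, a phosphatase of mitotic entry, at 3.96 and 9.73 TPM. The opposing kinase genes Wee1 and Pkmyt1 were at 15.43 and 12.27 TPM in replicate 1 and at 18.69 and 16.66 TPM in replicate 2.

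Of the ubiquitin ligases, Skp1a and Cul1, core SCF subunits, were at 77.28 and 47.15 TPM in replicate 1 and at 100.22 and 81.33 TPM in replicate 2. Skp2 was at 12.78 and 14.4 TPM, and Fbxw7, which targets cyclin E, at 6.78 and 5.0 TPM in replicates 1 and 2. Of the receptors reported for D-type cyclins, Ambra1 was at 16.79 TPM in replicate 1 and 13.15 in replicate 2 and Fbxo4 at 0.96 and 3.5 TPM. Cryab, described as a partner of Fbxo4, had 0 counts in both libraries, where 3 counts would be 0.130 and 0.0762 TPM in replicates 1 and 2. Of the 16 genes of this list with a mean of at least 1 TPM, 3 differed by 2-fold or more, against 11.3% of all such genes. The 3 were Cdc25b, Cdc25c and Fbxo4, all lower in replicate 1, where 66.1% of all such genes were lower by any amount.

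Of 10 genes of the CDK inhibitors and the retinoblastoma family, which these kinases phosphorylate, 4 reached 10 TPM in both libraries. The share over protein-coding nuclear genes was 24.7%. The 4 included the family gene Rbl1 at 31.42 TPM in replicate 1 and 28.83 in replicate 2. The others were the family genes Rb1 at 20.03 and 29.25 TPM and Rbl2 at 15.14 and 30.96 TPM, and Cdkn2c at 12.06 and 11.82 TPM. Cdkn2c encodes an inhibitor of CDK4 and CDK6. Over the list the median was 5.91 TPM in replicate 1 and 5.56 in replicate 2. Below 10 TPM, the inhibitor gene Cdkn1b was at 9.13 TPM in replicate 1 and 8.03 in replicate 2, from 725 and 1103 counts. Cdkn2d was at 2.69 and 3.09 TPM and Cdkn1c at 0.0 and 0.49 TPM in replicates 1 and 2. Cdkn2a and Cdkn2b, inhibitors of CDK4 and CDK6, had 0 counts in both libraries. For Cdkn2a 3 counts would be 0.185 and 0.110 TPM, and for Cdkn2b 0.109 and 0.0633 TPM, in replicates 1 and 2. Among genes of the list with a mean of at least 1 TPM, 1 of 7 differed by 2-fold or more, against 11.3% of all genes at that level. It was the inhibitor gene Cdkn1a, at 0.87 TPM in replicate 1 and 2.84 in replicate 2. The values of Cdkn1a, Cdkn1b, Cdkn1c, Cdkn2a, Cdkn2b and Cdkn2d were seen before these genes were picked for naming. The highest gene of the list was thus below Cdk4, Ccna2, Cdk6, Ccnd3 and Ccne1 in both libraries.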

How the data were processed

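Total RNA was measured in 2 libraries of 100 MEP. The README deposited with the tables names mm10 and GENCODE M4 as the authors' reference. Which quantifier and settings were used is not given in the sources used here; RSEM writes columns of these names. The deposited expected counts are estimated reads per gene or transcript. The deposited TPM values were corrected for effective length by the authors and share 1 total with all other features, ribosomal RNA included. The authors also deposited each transcript's percent of its gene's TPM. The deposited FPKM values, the score columns (posterior SDs of counts) and the signal columns (bounds of intervals) were not used for results, except that posterior mean TPM, deposited among the TPM columns, was an alternative.

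GENCODE M21 on GRCm38 gave names, transcript types, coding sequences and coordinates, by identifier without version, which matched 42462 genes. A promoter was tied to transcripts that begin within 200 bases of its start. Means are ± SD over 2 libraries. Differences are log2(TPM + 1), replicate 1 minus replicate 2, for genes with a mean of at least 1 TPM, and the pseudocount understates those of low genes. Intervals of ratios come from rounded counts by the exact Clopper-Pearson method, at 95%. As alternatives, rounded expected counts were scaled in R 4.3.3 with TMM factors (edgeR 4.0.16) or size factors (DESeq2 1.42.0). Copies were sought with blastn 2.17.0, at 90% identity over 300 bases or more. The rest ran in Python 3.11.15 with pandas 2.3.3, numpy 2.4.6, matplotlib 3.10.9 and scipy 1.17.1, and the steps across all genes were tested on simulated data.

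The members and lists were chosen with earlier results of these data known. All 9 members were named, with each member's leading transcript and those at 10% or more in both libraries, all genes of the activation and removal list, other cyclins and CDKs at or above the lowest member that reaches 10 TPM, and the 4 highest of the inhibitor list. Further transcripts, the other genes of the inhibitor list, the marker genes and the overlapping genes were named after their values were seen.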

Additional observations from a re-analysis of the deposited data

How the results depend on the processing

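No paired analysis was possible because there is only 1 group. The median of the 9 genes was 123.8 TPM when TPM was rescaled to protein-coding nuclear genes and 82.7 CPM with TMM factors and no length correction, against 53.3 TPM as deposited; the divisor and the length correction differ by construction. At a detection level of 20 TPM, 5 of 9 genes passed in both libraries, and at 5 TPM 8 did. The ratio of Cdk4 to Cdk6, 3.85 as deposited, was 1.50 over coding transcripts, 2.02 at the main coding length and 0.800, reversed, over complete coding transcripts. That of Cdk4 to Cdk2, 11.8 as deposited, was 4.39, 5.34 and 2.40 in the same order. That of Ccna2 to both cyclin E genes, 1.12 as deposited, was 1.19, 1.18 and 1.19, and 1.10 with posterior mean TPM. The alternatives that sum other transcripts were chosen after seeing the data. Each library alone gave 46.04 to 60.5 TPM for the median, 72.3% to 81.5% for the Ccnd3 share, 2.61 to 2.99 for Ccne1 to Ccne2, 1.12 to 1.13 for Ccna2 to cyclin E, 3.34 to 4.37 for Cdk4 to Cdk6 and 9.92 to 13.6 for Cdk4 to Cdk2. The number past 2-fold was 0 under each of the 8 alternatives. Depth limits Ccnd1 the most, with 129 and 244 counts in replicates 1 and 2.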

Other observations

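Other cyclins and cyclin-dependent kinases reached the range of the G1 and S genes. Of 20 other cyclins, 13 were at 10 TPM or more in both libraries, against 24.7% of protein-coding nuclear genes. The median over all 20 was 19.7 TPM in replicate 1 and 24.3 in replicate 2. The highest were Ccnl1 and Ccnl2, cyclins linked to splicing, at 68.1 ± 17.1 and 55.6 ± 15.4 TPM, followed by Ccni at 46.2 ± 4.55 TPM (SD, n = 2). The mitotic cyclin genes Ccnb1 and Ccnb2 were at 44.5 ± 3.18 and 39.6 ± 2.37 TPM (SD, n = 2), below Ccna2 in both libraries. Ccnt2, Ccng1, Ccnk, Ccnh and Ccnt1 lay between 30.4 and 35.4 TPM. Ccna1, the germline relative of Ccna2, had 0 counts in both libraries, where 3 counts would be 0.0955 and 0.0555 TPM in replicates 1 and 2, and was named after its value was seen.

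Of 16 other kinases, 9 were at 10 TPM or more in both libraries, against 24.7% of protein-coding nuclear genes. Cdk9, which releases paused RNA polymerase, was at 51.1 ± 16.3 TPM (SD, n = 2), and Cdk1, the mitotic kinase, at 49.8 ± 2.55 TPM (SD, n = 2). Cdk16 was at 38.7 ± 6.65 TPM, Cdk12 at 33.2 ± 4.05 TPM, Cdk11b at 30.0 ± 6.87 TPM, Cdk8 at 24.1 ± 0.509 TPM and Cdk17 at 21.7 ± 2.33 TPM (SD, n = 2). Cdk1 was above Cdk2 in both libraries, at 51.65 TPM in replicate 1 and 48.04 in replicate 2.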
